A study of Mus musculus with 16 samples.

Results

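Interferon-stimulated genes were described here as a set of 41 genes, found by symbol among the 29060 genes of a table of RNA sequencing values from primary mouse preadipocytes. Preadipocytes are the fibroblast-like precursors of fat cells. The cells came from inguinal fat, a white subcutaneous storage depot, or from interscapular fat, a brown heat-producing depot. All came from C57BL/6N mice that carry a reporter for Ucp1, so every group shares that background, and one further label calls the cells adipocytes. They were treated with Fgf8b, a fibroblast growth factor whose receptors activate the ERK pathway, or with a control. Each depot had a control and an Fgf8b group of 4 libraries, 16 libraries in all. How old the animals were, and how much Fgf8b the cells met and for how long, is not stated in the labels. The design text speaks of 3 independent cultures, so some of the 4 libraries of a group may share a culture, and the p-values below measure the spread between these libraries, which may be technical.

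Interferons are secreted proteins that cells release on meeting a virus or foreign nucleic acid. They bind receptors whose attached JAK kinases phosphorylate transcription factors of the STAT family. STAT2 and IRF9 belong to the complex that enters the nucleus and binds interferon-stimulated response elements in promoters. The genes switched on in this way encode sensors of foreign RNA, proteins that block viral growth, enzymes that tag proteins with ubiquitin, ISG15 or ADP-ribose, membrane-attacking GTPases, chemokines, and feedback proteins that damp the signal. Many of them are also transcribed at a low tonic level in cells of the connective tissue without infection.

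Levels are given as RPKM (reads scaled to transcript length and library depth) of 1 representative transcript per gene, so that levels of different genes can be compared per length. Values of a group are listed by ascending library number, which is 1, 3, 5 and 7 for white control, 2, 4, 6 and 8 for white Fgf8b, 9, 11, 13 and 15 for brown control, and 10, 12, 14 and 16 for brown Fgf8b. The numbers alternate between control and Fgf8b, and the labels do not say whether neighbouring numbers share a culture or a day, so libraries were not paired. Differences and tests use log2 of the RPKM summed over a gene's transcripts plus 0.5, tested with limma over the 15222 genes that passed a filter on low values. A gene was called at a Benjamini-Hochberg adjusted p under 0.05 over all of them. All 41 genes passed that filter. Fold changes are on the same scale and understate the change of genes with low levels.

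The libraries held 13.7 to 20.1 M reads, as recovered from the values. All 5 genes taken as a check on the growth factor, negative feedback and ETS factor genes of the ERK pathway, rose with Fgf8b in both depots, with a median log2 change of 1.66 in white and 2.72 in brown cells. All 12 preadipocyte and fibroblast markers found in the table passed the filter, while none of 6 markers of mature fat cells did, and 3 of these were at 0 in every library. Summed, the 12 were at 4890 to 5091 RPKM in white control, 2567 to 2748 in white Fgf8b, 3149 to 3693 in brown control and 1415 to 1472 in brown Fgf8b libraries. With Fgf8b 5 rose and 7 fell in white cells and 2 rose and 9 fell in brown cells. The shares of all genes tested were 36.3% and 29.5% in white and 36.7% and 34.7% in brown cells. Of 17 leukocyte markers, 14 had a mean under 1 RPKM in every group and 5 passed the filter. Their summed level was 5.45 to 6.23 RPKM in white control, 7.11 to 7.73 in white Fgf8b, 6.51 to 9.20 in brown control and 9.75 to 10.4 in brown Fgf8b libraries, so it was higher with Fgf8b in both depots. Single markers went both ways, with 2 of the 5 called higher and 2 lower in each depot. Cd14, a receptor for bacterial lipopolysaccharide, made up most of the sum with Fgf8b and rose from a mean of 3.01 to 5.12 RPKM in white and from 3.58 to 7.87 RPKM in brown cells, and Cd68, a macrophage protein, rose by 0.67 and 0.53 on the log2 scale. The macrophage genes Lyz2 and Csf1r fell, Lyz2 at -2.50 and -3.29 and Csf1r at -0.73 and -0.40. Brown control library 15 stood apart from the other libraries of its group. There the central 80% of the 11790 genes averaging 5 RPKM or more lay between -0.22 and 0.19 of the group mean on the log2 scale. In the other 3 libraries the range was -0.12 to 0.13. White and brown libraries may come from separately made tables, since 145 of 299 repeated transcript records had unequal values in white libraries and 0 in brown ones. Levels of white and brown cells set side by side carry that limit. The log2 change within a depot compares libraries of that depot alone, while its SE and p-value draw on the spread within all groups. Whether the limit on levels reaches the difference of the responses between depots was not tested.

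Fgf8b lowered nearly the whole set in white preadipocytes, while in brown ones most of its genes did not pass the test. In white cells 40 of the 41 genes were called lower and 0 higher, where 29.5% of all genes tested were called lower and 36.3% higher. The median log2 change of the set was -0.73, against 0.04 for all genes, and single genes ranged from -2.86 for Mx1 to -0.08 for Irf1. Libraries of the 2 groups did not overlap in 39 of the 41 genes, with Irf1 and Usp18 as the exceptions, where 28.1% of all genes tested were lower and 35.0% higher in every Fgf8b library. In brown cells 6 genes were called higher and 10 lower, where 36.7% and 34.7% of all genes tested were, and 25 did not pass the test. Both shares of the set lay below the share of all genes. The set also spread more widely between brown Fgf8b libraries, with a median SD of 0.195 on the log2 scale, against 0.071 for genes averaging 5 RPKM or more. In white Fgf8b libraries these medians were 0.191 and 0.067. The part of this spread in the number of calls was not tested. The median change in brown cells was -0.07, against 0.01 for all genes, and the range was -0.88 for Iigp1 to 0.98 for Cxcl10. Libraries did not overlap in 6 genes that were higher with Fgf8b and 5 that were lower in brown cells, where 32.2% and 29.3% of all genes did so. The balance in brown cells turned on 1 library: without brown Fgf8b library 16, 10 genes were called higher and 8 lower, and the median was 0.01. Without brown control library 15, 7 were called higher and 13 lower. In bulk RNA, fewer cells that transcribe a gene and less of its RNA per cell cannot be told apart.

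**Figure D1:**
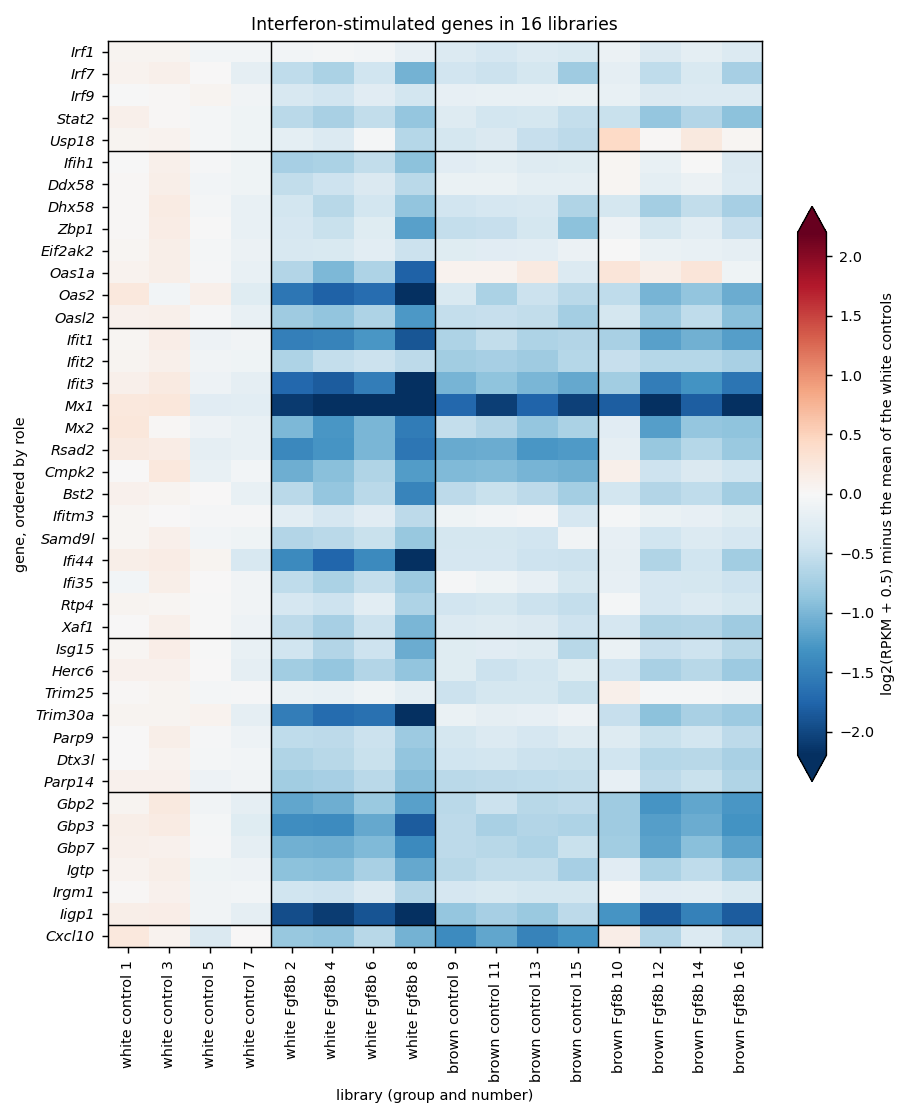
Heat map of the 41 genes (rows, ordered by role, with lines between roles) in the 16 libraries (columns, with lines between groups). Colour gives log2(RPKM + 0.5) minus the mean of the 4 white controls, blue lower and red higher, and values past the ends of the scale are drawn in its end colour. The 4 white Fgf8b columns are blue in nearly every row and darkest in library 8, and the brown controls are mostly blue against the white controls too.

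The difference between the depots was tested directly, as the response in brown minus the response in white cells. It was higher for 40 of the 41 genes and lower for 0, where 17.1% of all genes tested were higher and 17.8% lower. The exception was Dhx58, the RNA sensor LGP2, with a difference of 0.40 (SE 0.15) and an adjusted p of 0.0501. The median difference was 0.75 on the log2 scale, against -0.01 for all genes, and the range ran from 0.18 for Irf1 to 2.57 for Mx1. This test uses the same libraries as the responses within each depot and is not a further sample. Control cells differed as well: 36 of the 41 genes were called lower in brown than in white controls and 0 higher, where 15.9% of all genes were lower and 18.1% higher, with a median of -0.46. With Fgf8b, 22 were called higher in brown than in white cells and 1 lower, where 26.9% and 24.7% of all genes were, and the median was 0.26. Irf1 was the lower one, at -0.16 with an adjusted p of 0.00843. Libraries of the depots did not overlap in 36 genes that were lower in brown control cells and 15 that were higher in brown Fgf8b cells, where 14.8% and 25.9% of all genes were (16.7% were higher in brown control and 23.2% lower in brown Fgf8b libraries). All of these comparisons share groups of libraries.

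**Figure D2:**
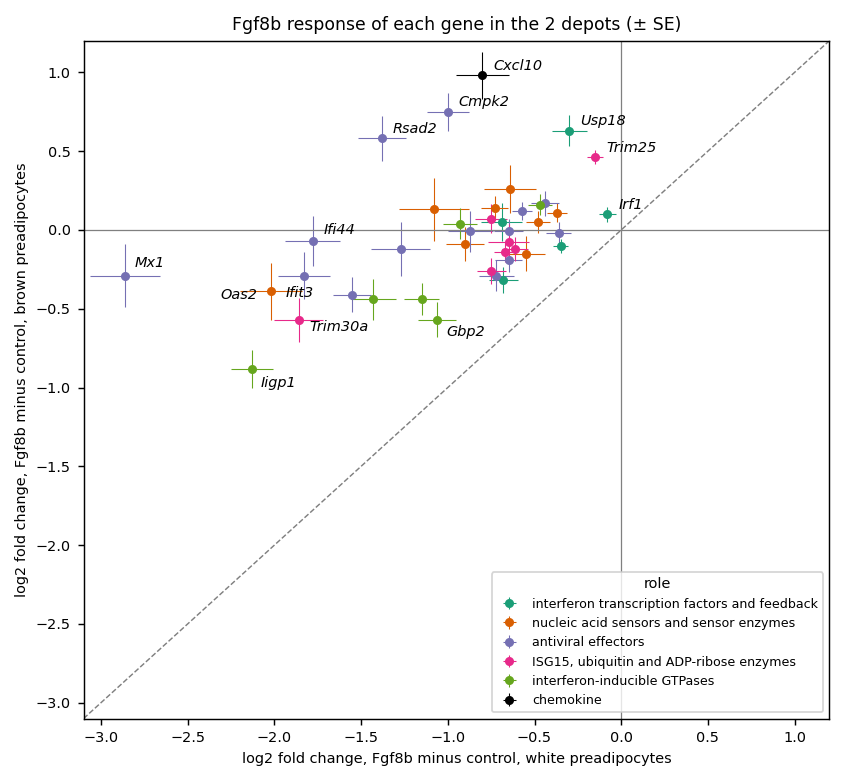
Log2 change with Fgf8b in white (horizontal axis) and brown (vertical axis) preadipocytes for each of the 41 genes, coloured by role, with bars of 1 SE on each axis. The dashed line marks equal responses: every gene lies above it, and the genes above the horizontal line at 0 with the largest brown changes are Cxcl10, Cmpk2, Usp18, Rsad2 and Trim25.

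The response element bound by the complex of STAT2 and IRF9 contains the letters GAAANNGAAA, and the element bound by STAT dimers after interferon gamma contains TTCNNNGAA. Both were searched on both strands of the RefSeq promoters of GRCm38.p6, windows of 250 bases before to 50 bases after a transcription start. A promoter was at hand for 31 of the 41 genes, in 36 windows. GAAANNGAAA occurred in 18 of the 31 genes, and in 3.99% of the 27025 genes of the promoter table (19 of 36 windows, against 3.44% of 32851). TTCNNNGAA occurred in 9 of the 31 genes, against 9.55% of all genes (8.3% of windows), and both overlapped in 2 windows of the set. The median white change was -0.90 in the 18 genes with GAAANNGAAA and -0.67 in the 13 without it, and the brown medians were -0.02 and -0.07. A match is a run of letters and no shown binding site. The promoters of 4 genes with the first element and of Irf1 with the second are printed because these genes span the responses: Ifit3 and Isg15 fell in white cells without a called change in brown cells, Rsad2 and Cxcl10 moved in opposite directions, and Irf1 moved least in white cells. Each runs 5′ to 3′ on the strand of its gene, with matches in capitals, which for Ifit3 and Rsad2 show the element on the opposite strand and for Isg15 hold 3 overlapping matches. The windows are chr19:34583279-34583578 (plus strand) for Ifit3, chr4:156200769-156201068 (minus) for Isg15, chr12:26456403-26456702 (minus) for Rsad2, chr5:92348840-92349139 (minus) for Cxcl10 and chr11:53769764-53770063 (plus) for Irf1.
Ifit3: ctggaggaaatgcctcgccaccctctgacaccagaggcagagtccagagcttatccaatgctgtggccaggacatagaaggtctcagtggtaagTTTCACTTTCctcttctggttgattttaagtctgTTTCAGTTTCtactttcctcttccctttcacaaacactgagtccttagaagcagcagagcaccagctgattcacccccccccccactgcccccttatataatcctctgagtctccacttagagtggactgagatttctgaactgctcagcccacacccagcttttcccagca
Isg15: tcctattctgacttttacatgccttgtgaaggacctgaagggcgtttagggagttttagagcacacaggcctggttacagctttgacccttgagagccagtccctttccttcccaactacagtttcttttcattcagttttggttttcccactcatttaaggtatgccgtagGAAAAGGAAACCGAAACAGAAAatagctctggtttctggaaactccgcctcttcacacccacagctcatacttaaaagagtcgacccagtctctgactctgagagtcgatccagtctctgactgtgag
Rsad2: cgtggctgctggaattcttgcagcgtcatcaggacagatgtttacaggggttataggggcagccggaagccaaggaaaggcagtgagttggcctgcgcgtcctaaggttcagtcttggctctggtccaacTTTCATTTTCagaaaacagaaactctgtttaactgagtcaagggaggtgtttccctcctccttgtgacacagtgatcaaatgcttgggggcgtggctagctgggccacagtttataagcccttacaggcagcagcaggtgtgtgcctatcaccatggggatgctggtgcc
Cxcl10: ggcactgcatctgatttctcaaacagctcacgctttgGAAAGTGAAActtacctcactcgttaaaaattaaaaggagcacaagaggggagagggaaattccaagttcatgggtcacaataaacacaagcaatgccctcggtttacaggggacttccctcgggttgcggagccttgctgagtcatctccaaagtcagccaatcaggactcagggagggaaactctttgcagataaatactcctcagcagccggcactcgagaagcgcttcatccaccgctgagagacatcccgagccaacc
Irf1: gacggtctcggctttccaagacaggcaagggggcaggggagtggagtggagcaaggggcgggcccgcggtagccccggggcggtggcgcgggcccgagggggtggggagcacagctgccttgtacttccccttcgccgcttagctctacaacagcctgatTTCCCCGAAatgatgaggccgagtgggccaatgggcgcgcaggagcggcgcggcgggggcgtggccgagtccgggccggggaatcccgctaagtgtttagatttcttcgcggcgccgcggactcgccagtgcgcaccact
The first match of GAAANNGAAA began 156 bases before the start of Ifit3, 78 before that of Isg15, 120 before that of Rsad2 and 213 before that of Cxcl10, so genes with and without a called brown rise carry it. The Irf1 window holds TTCNNNGAA and no GAAANNGAAA, and its match begins 90 bases before the start.

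Among the transcription factors and feedback genes, 4 of 5 fell in white cells, with a median of -0.35, where 29.5% of all genes tested fell. In brown cells 1 rose and 1 fell, where 36.7% and 34.7% of all genes did, and the median was 0.05. Irf7, the factor that drives transcription of interferon genes themselves, stood at 110.1, 112, 105 and 90.4 RPKM in white control and at 70.1, 63.9, 76.4 and 50.3 RPKM in white Fgf8b libraries. In brown cells it stood at 77.7, 75.0, 79.2 and 60.0 RPKM in control and at 90.6, 70.1, 82.1 and 62.4 RPKM in Fgf8b libraries. Every white Fgf8b library was below every white control, a 1.62-fold fall (log2 -0.69, SE 0.12, adjusted p 7.6e-05), whereas the brown groups overlapped (log2 0.05, SE 0.12, adjusted p 0.71). The brown value was -0.04 under upper-quartile scaling and also without control library 15 or without Fgf8b library 10.

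Stat2 and Irf9 encode parts of the complex that binds the response element. Stat2 was at 81.7, 77.0, 73.0 and 70.5 RPKM in white control and at 49.9, 45.6, 51.7 and 41.8 RPKM in white Fgf8b libraries. It was at 61.5, 56.6, 57.4 and 52.4 RPKM in brown control and at 53.9, 41.4, 47.8 and 40.0 RPKM in brown Fgf8b libraries. Stat2 therefore fell in both depots, by 0.68 on the log2 scale in white cells (SE 0.083, adjusted p 7.44e-07) and by 0.32 in brown cells (SE 0.083, adjusted p 0.00218), with overlapping libraries in the latter. The values of Irf9 were 58.9, 59.9, 61.2 and 56.1 RPKM in white control and 46.0, 43.9, 49.8 and 44.6 RPKM in white Fgf8b libraries. In brown cells they were 52.3, 52.4, 52.7 and 53.1 RPKM in control and 52.5, 47.4, 48.0 and 47.9 RPKM with Fgf8b. Irf9 fell 1.28-fold in white cells (log2 -0.35, SE 0.044, adjusted p 9.32e-07) and missed the threshold in brown cells (log2 -0.10, SE 0.044, adjusted p 0.0575), where library 10 lay within the controls and the other 3 Fgf8b libraries lay below them. Both scalings between libraries brought that brown change past the threshold, at -0.13 with median-of-ratios and -0.19 with upper-quartile factors.

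Usp18 encodes the protease that strips ISG15 from proteins and also blocks the type I interferon receptor, and it moved in opposite directions. It was at 76.9, 77.3, 71.6 and 68.8 RPKM in white control and at 63.2, 59.4, 71.5 and 47.7 RPKM in white Fgf8b libraries. In brown cells it was at 56.1, 59.2, 51.7 and 49.1 RPKM in control and at 100.3, 74.7, 85.7 and 75.5 RPKM in Fgf8b libraries. In white cells library 6 reached the controls and the fall was small (log2 -0.30, SE 0.10, adjusted p 0.0175), and without library 8 it was -0.19 with an adjusted p of 0.0842. In brown cells every Fgf8b library was above every control, a 1.55-fold rise (log2 0.63, SE 0.10, adjusted p 2.54e-05), and the responses differed by 0.93 (adjusted p 8.1e-05).

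Irf1, a transcription factor induced by interferon gamma, was the gene of the set that moved least in white cells. Its levels were 31.7, 31.9, 29.2 and 29.1 RPKM in white control, 29.1, 29.4, 29.1 and 26.8 in white Fgf8b, 24.6, 23.4, 24.5 and 24.0 in brown control and 27.7, 24.4, 26.1 and 24.8 in brown Fgf8b libraries. The groups of each depot overlapped, and neither change passed the test (white log2 -0.08, SE 0.047, adjusted p 0.146; brown 0.10, SE 0.047, adjusted p 0.0586). The white change was past the threshold under median-of-ratios and upper-quartile scaling, at -0.13 and -0.14.

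All 8 sensors of nucleic acid and sensor enzymes fell in white cells, with a median of -0.68, where 29.5% of all genes tested fell. None of the 8 passed the test in brown cells, where 36.7% of all genes rose and 34.7% fell. Their brown median was 0.08. Oas2, one of the synthetases that answer double-stranded RNA by making the short adenylate chains that activate RNase L, showed the largest white change of the group. Its levels were 11.4, 9.29, 10.5 and 7.93 RPKM in white control and 2.90, 2.47, 2.69 and 1.35 RPKM in white Fgf8b libraries. They were 7.53, 5.80, 6.80 and 6.22 RPKM in brown control and 6.45, 4.52, 5.11 and 4.26 RPKM in brown Fgf8b libraries. The white fall was 4.05-fold with no overlap (log2 -2.02, SE 0.18, adjusted p 9.92e-09), and the brown libraries overlapped (log2 -0.39, SE 0.18, adjusted p 0.06). That brown fall was past the threshold under median-of-ratios and upper-quartile scaling, at -0.42 and -0.48. It was also past it in a fit of only the groups compared, at -0.39, without white Fgf8b library 8, at -0.39, and without brown Fgf8b library 10, at -0.52. White Fgf8b levels rested on 84 to 209 reads of the representative transcript per library and white control levels on 555 to 750.

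Oas1a, a synthetase of the same family, was at 9.003, 9.34, 8.43 and 7.54 RPKM in white control, 5.32, 4.05, 5.13 and 2.13 in white Fgf8b, 9.05, 9.05, 9.90 and 6.82 in brown control and 10.4, 9.38, 10.4 and 7.93 in brown Fgf8b libraries. White Fgf8b was the one low group, with a fall of 1.08 on the log2 scale (SE 0.20, adjusted p 8.7e-05), and the controls of the depots overlapped (log2 0.01, SE 0.20, adjusted p 0.969). These values are uncertain as those of 1 gene, because 68.8% of the 31-base words of Oas1a occur in other genes, mostly in Oas1g. Oasl2, a relative with ubiquitin-like domains, was far more abundant, at 135, 136, 124 and 113 RPKM in white control and 73.6, 69.0, 78.8 and 52.7 RPKM in white Fgf8b libraries. In brown cells it was at 87.6, 89.4, 86.6 and 75.5 RPKM in control and at 97.0, 72.5, 85.5 and 66.6 RPKM with Fgf8b. It fell 1.86-fold in white cells (log2 -0.90, SE 0.11, adjusted p 7.6e-07) and was at -0.09 in brown cells (SE 0.11, adjusted p 0.482).

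Zbp1, a sensor of nucleic acid in the left-handed Z form that can start necroptosis, spread widely within groups. It was at 72.6, 79.9, 70.8 and 63.4 RPKM in white control and at 55.0, 50.5, 59.3 and 31.1 RPKM in white Fgf8b libraries, the last being library 8. In brown cells it was at 49.4, 50.3, 54.8 and 38.0 RPKM in control and at 65.9, 54.4, 61.05 and 50.04 RPKM with Fgf8b. The white fall was 1.56-fold (log2 -0.64, SE 0.15, adjusted p 0.00097), and the brown value of 0.26 did not pass the test (SE 0.15, adjusted p 0.135). Without white Fgf8b library 8 the brown value of 0.26 passed it, with an adjusted p of 0.0299. The RNA helicase sensors had white changes of -0.73 for Ifih1 (MDA5), -0.48 for Ddx58 (RIG-I) and -0.55 for Dhx58, and the RNA-activated kinase gene Eif2ak2 (PKR) had -0.37. In brown cells these 4 were at 0.14, 0.05, -0.15 and 0.11, with adjusted p-values of 0.106, 0.484, 0.223 and 0.099.

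The 14 antiviral effectors all fell in white cells, with a median of -0.94, where 29.5% of all genes tested fell. In brown cells 2 rose and 3 fell, where 36.7% and 34.7% of all genes did, and the median was -0.05. Mx1, a dynamin-like GTPase that blocks influenza viruses, had the largest white change of the whole set. C57BL/6 strains carry a defective copy of the gene, and the RefSeq record of its transcript is a non-coding one, as is that of Mx2. Mx1 was at 6.40, 6.45, 4.40 and 4.46 RPKM in white control and at 0.851, 0.680, 0.737 and 0.413 RPKM in white Fgf8b libraries. It was at 1.27, 0.892, 1.23 and 0.900 RPKM in brown control and at 1.16, 0.664, 1.17 and 0.656 RPKM in brown Fgf8b libraries. Brown controls were thus already low, and the white fall of 7.28-fold (log2 -2.86, SE 0.20, adjusted p 4.29e-10) went with a brown change of -0.29 (SE 0.20, adjusted p 0.207). These low levels were 218 to 344 reads per library in white control, 18 to 40 in white Fgf8b, 38 to 53 in brown control and 26 to 50 in brown Fgf8b libraries.

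The IFIT proteins bind foreign RNA and hinder its translation. Ifit3 was at 170.0, 179.8, 145 and 138 RPKM in white control and at 47.0, 44.0, 54.2 and 33.7 RPKM in white Fgf8b libraries. It was at 77.4, 85.3, 77.8 and 71.8 RPKM in brown control and at 92.9, 54.4, 62.7 and 51.3 RPKM in brown Fgf8b libraries. White levels dropped 3.55-fold (log2 -1.83, SE 0.15, adjusted p 4.25e-09), while in brown cells library 10 lay above every control and the other 3 Fgf8b libraries lay below them (log2 -0.29, SE 0.15, adjusted p 0.0955). Without library 10 the brown change was -0.47 with an adjusted p of 0.0024. Ifit3 is uncertain as a single gene, since 61.8% of its 31-base words also occur in Ifit3b. Ifit1 fell in both depots, from a mean of 188 ± 15.9 to 65.2 ± 10.9 RPKM in white (log2 -1.55, SE 0.11, adjusted p 3.58e-10) and from 121 ± 5.93 to 91.5 ± 15.3 RPKM in brown cells (log2 -0.41, SE 0.11, adjusted p 0.00275; SD, n = 4). Ifit2 fell in white cells, at -0.57, and was at 0.12 in brown cells with an adjusted p of 0.0687.

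Ifi44, a cytoplasmic protein induced with the antiviral genes, was at 40.5, 41.1, 38.4 and 28.8 RPKM in white control and at 13.6, 10.6, 13.6 and 7.30 RPKM in white Fgf8b libraries. In brown cells it was at 28.4, 28.3, 26.8 and 26.5 RPKM in control and at 31.9, 23.0, 26.9 and 21.5 RPKM with Fgf8b. The white fall was 3.43-fold (log2 -1.78, SE 0.16, adjusted p 1.18e-08), and the brown controls lay in a narrow band that the Fgf8b libraries straddled (log2 -0.07, SE 0.16, adjusted p 0.698).

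Rsad2 and Cmpk2 are neighbouring genes for viperin, which makes a nucleotide that halts viral RNA synthesis, and for a mitochondrial nucleotide kinase. Rsad2 was at 18.9, 18.4, 14.2 and 14.5 RPKM in white control, 5.78, 6.38, 7.89 and 5.12 in white Fgf8b, 7.29, 7.45, 6.41 and 6.60 in brown control and 14.3, 8.94, 10.4 and 9.05 in brown Fgf8b libraries. Cmpk2 was at 16.4, 19.2, 14.6 and 15.7 RPKM in white control, 7.56, 8.48, 10.1 and 6.70 in white Fgf8b, 8.08, 8.26, 7.79 and 7.60 in brown control and 17.8, 11.9, 13.1 and 11.9 in brown Fgf8b libraries. For both genes the groups of each depot did not overlap and the order was reversed between depots: Fgf8b libraries were the low ones in white and the high ones in brown cells. Rsad2 fell 2.61-fold in white cells (log2 -1.38, SE 0.14, adjusted p 6.99e-08) and rose 1.49-fold in brown cells (log2 0.58, SE 0.14, adjusted p 0.00125). Cmpk2 fell by 1.0 on the log2 scale in white cells (SE 0.12, adjusted p 9.3e-07) and rose 1.69-fold in brown cells (log2 0.75, SE 0.12, adjusted p 2.44e-05). The responses differed by 1.96 for Rsad2 and by 1.75 for Cmpk2 (adjusted p 5.72e-07 and 4.58e-07).

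The remaining effectors were mostly abundant genes with smaller white changes. Ifitm3, which stops viruses from leaving endosomes, had the highest level of the set, at 1228 ± 27.2 RPKM in white control and 959.6 ± 103 RPKM in white Fgf8b libraries (log2 -0.36, adjusted p 0.000254). Bst2, the tetherin that holds budding virus at the cell surface, was at 579.9 ± 42.1 and 325 ± 81.5 RPKM (log2 -0.87, adjusted p 1.33e-05). In brown cells Ifitm3 was at 1122 ± 116 in control and 1101 ± 69.6 RPKM in Fgf8b libraries, and Bst2 at 384 ± 28.8 and 384 ± 39.8 RPKM (SD, n = 4 throughout). Neither change passed the test there, with adjusted p-values of 0.787 and 0.929. Mx2, the second dynamin-like GTPase, had a white change of -1.27, Xaf1, a promoter of cell death, of -0.72, Samd9l of -0.65, Ifi35 of -0.65 and Rtp4 of -0.44. In brown cells Xaf1 and Ifi35 fell too, by 0.29 and 0.19, and the others did not pass the test, with -0.12 for Mx2, -0.01 for Samd9l and 0.17 for Rtp4.

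**Figure D3:**
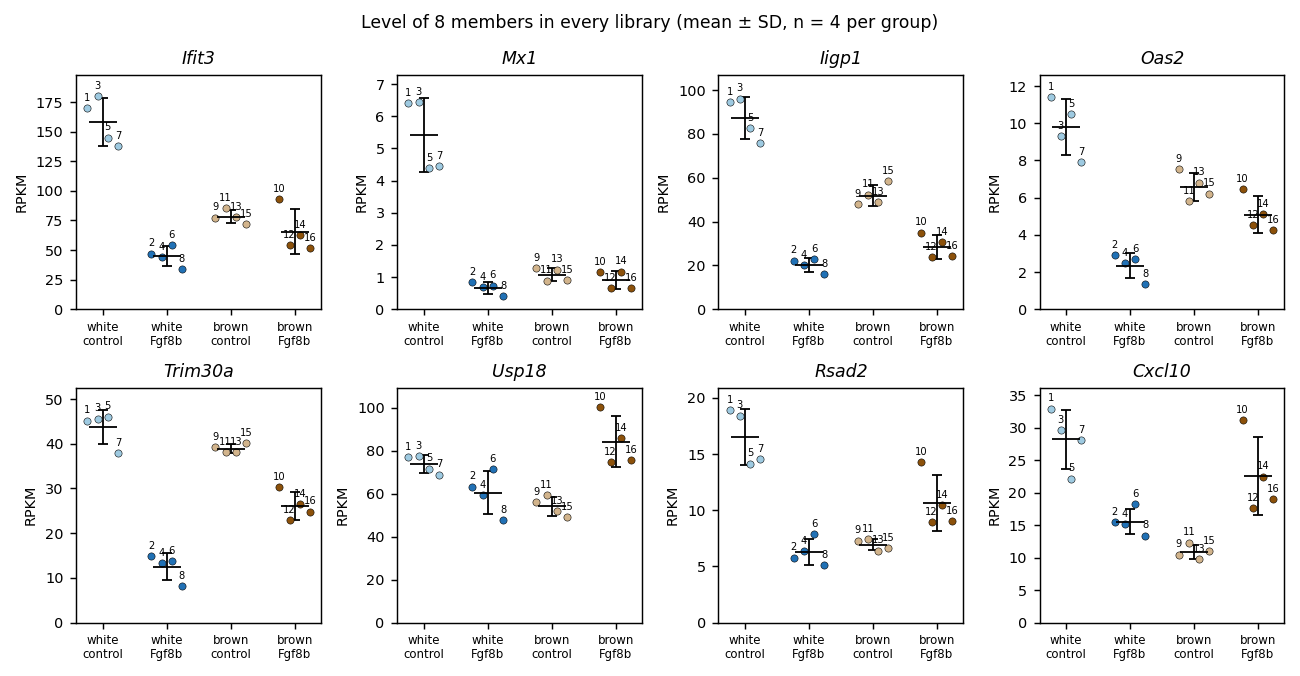
RPKM of the representative transcript of 8 genes in every library (points, with library numbers), with the mean and SD of each group of 4 (horizontal lines and bars). Ifit3, Mx1, Oas2, Iigp1 and Trim30a are lowest in white Fgf8b, while Usp18, Rsad2 and Cxcl10 fall with Fgf8b in white and rise in brown cells, with library 10 the highest brown point.

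All 7 genes of the ISG15, ubiquitin and ADP-ribose enzymes fell in white cells, with a median of -0.67, where 29.5% of all genes fell. In brown cells 1 rose and 2 fell, where 36.7% and 34.7% of all genes did, and the median was -0.12. Isg15, the ubiquitin-like modifier, was at 713 ± 62.2 RPKM in white control and 459 ± 87.8 RPKM in white Fgf8b libraries (SD, n = 4; log2 -0.65, SE 0.12, adjusted p 0.000122). It was at 560.3 ± 63.2 and 532 ± 75.7 RPKM in brown cells (log2 -0.08, SE 0.12, adjusted p 0.583). Herc6 encodes the main ligase that attaches ISG15 in mice. It was at 12.9, 13.04, 12.1 and 10.5 RPKM in white control, 6.90, 6.51, 7.60 and 6.38 in white Fgf8b, 9.94, 8.63, 9.08 and 9.96 in brown control and 8.96, 7.20, 7.73 and 6.77 in brown Fgf8b libraries. Herc6 fell 1.68-fold in white cells (log2 -0.75, SE 0.083, adjusted p 2.17e-07) and 1.2-fold in brown cells, with overlap (log2 -0.26, SE 0.083, adjusted p 0.00982).

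The TRIM ubiquitin ligases of the set parted. Trim30a, which restrains inflammatory signalling in mouse macrophages, was at 45.2, 45.6, 46.1 and 38.0 RPKM in white control, 14.8, 13.2, 13.7 and 8.09 in white Fgf8b, 39.2, 38.1, 38.2 and 40.2 in brown control and 30.4, 23.0, 26.5 and 24.8 in brown Fgf8b libraries. It fell without overlap in both depots, 3.64-fold in white (log2 -1.86, SE 0.14, adjusted p 8.07e-10) and 1.48-fold in brown cells (log2 -0.57, SE 0.14, adjusted p 0.00134). Trim25, which activates RIG-I by ubiquitin, was at 35.4, 36.4, 33.8 and 34.2 RPKM in white control, 31.4, 30.99, 32.6 and 30.2 in white Fgf8b, 24.9, 26.5, 26.5 and 24.7 in brown control and 37.6, 33.9, 34.1 and 33.2 in brown Fgf8b libraries. Its white fall of 1.11-fold was the smallest called one (log2 -0.15, SE 0.045, adjusted p 0.00795), and it rose 1.37-fold in brown cells with every Fgf8b library above every control (log2 0.46, SE 0.045, adjusted p 3.75e-08).

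Parp14, a transferase of single ADP-ribose units, was at 26.2, 25.9, 22.6 and 23.1 RPKM in white control, 14.2, 14.5, 16.01 and 12.4 in white Fgf8b, 16.01, 16.2, 16.3 and 16.6 in brown control and 21.6, 16.1, 17.2 and 15.2 in brown Fgf8b libraries. White levels fell 1.69-fold (log2 -0.75, SE 0.092, adjusted p 7.58e-07). In brown cells the controls lay close together, library 10 was well above them, and the change did not pass the test (log2 0.07, SE 0.092, adjusted p 0.479). Parp9 and Dtx3l, whose proteins form a complex with ADP-ribosylating and ubiquitin ligase activity, had white changes of -0.61 and -0.67 and brown values of -0.12 and -0.14, the latter with adjusted p-values of 0.167 and 0.059.

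Some interferon-inducible GTPases coat and break the vacuoles of intracellular pathogens. The 6 of the set all fell in white cells, with a median of -1.10, where 29.5% of all genes tested fell. In brown cells 4 fell and 1 rose, where 34.7% and 36.7% of all genes did, and the median was -0.44. Iigp1 was at 94.5, 96.1, 82.6 and 75.9 RPKM in white control, 22.2, 20.04, 22.9 and 15.8 in white Fgf8b, 47.9, 52.3, 49.0 and 58.3 in brown control and 34.9, 23.9, 30.6 and 24.2 in brown Fgf8b libraries. No libraries overlapped in either depot, with a fall of 4.37-fold in white (log2 -2.13, SE 0.12, adjusted p 1.26e-11) and 1.84-fold in brown cells (log2 -0.88, SE 0.12, adjusted p 2.53e-06).

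Among the guanylate-binding proteins, Gbp3 was at 68.9, 71.3, 61.2 and 52.3 RPKM in white control, 24.1, 23.9, 28.7 and 17.4 in white Fgf8b, 42.3, 38.3, 40.1 and 39.1 in brown control and 36.5, 26.9, 29.5 and 25.1 in brown Fgf8b libraries. Gbp2 was at 57.0, 63.2, 51.6 and 47.3 RPKM in white control, 24.5, 25.6, 30.8 and 23.4 in white Fgf8b, 35.9, 39.3, 35.6 and 36.4 in brown control and 31.5, 22.0, 24.2 and 22.0 in brown Fgf8b libraries. Gbp7 was at 24.6, 24.3, 22.4 and 19.8 RPKM in white control, 10.7, 10.5, 11.3 and 8.32 in white Fgf8b, 15.1, 14.8, 14.02 and 15.99 in brown control and 13.1, 9.80, 11.8 and 9.73 in brown Fgf8b libraries. The 3 genes went the same way, with white control the highest group and Fgf8b lower in both depots. White changes were -1.43 for Gbp3 (SE 0.13, adjusted p 1.91e-08), -1.06 for Gbp2 (SE 0.11, adjusted p 1.38e-07) and -1.15 for Gbp7 (SE 0.10, adjusted p 7.38e-09). Brown changes were -0.44 (SE 0.13, adjusted p 0.00714), -0.57 (SE 0.11, adjusted p 0.000208) and -0.44 (SE 0.10, adjusted p 0.000714). The immunity-related GTPases Igtp and Irgm1 fell in white cells, by 0.93 and 0.47, and in brown cells Irgm1 rose slightly (log2 0.16, adjusted p 0.0415) and Igtp was at 0.04 (adjusted p 0.754).

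Cxcl10, a chemokine that draws T cells and natural killer cells through the receptor CXCR3, showed the largest rise of the set in brown cells. It was at 32.9, 29.6, 22.1 and 28.1 RPKM in white control, 15.5, 15.1, 18.2 and 13.4 in white Fgf8b, 10.4, 12.3, 9.80 and 10.97 in brown control and 31.1, 17.6, 22.5 and 19.0 in brown Fgf8b libraries. Brown control was the lowest group, and all brown Fgf8b libraries lay above it. The white fall was 1.74-fold (log2 -0.80, SE 0.15, adjusted p 8.73e-05) and the brown rise 1.98-fold (log2 0.98, SE 0.15, adjusted p 6.92e-06), a difference of 1.78 (adjusted p 2.38e-06).

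Libraries of 1 group also differed from each other in the whole set at once. In white Fgf8b libraries all 41 genes were above their group mean in library 6 and 0 of 41 in library 8, and the mean deviation over the set was 0.20 in library 6, 0.09 in library 2, 0.02 in library 4 and -0.30 in library 8 on the log2 scale. Library 6 held the highest value of 33 genes and library 8 the lowest of 39, where 20.8% and 26.6% of all genes tested did. In the full order 6, 2, 4, 8 stood 21 of the 41 genes, where 3.86% of all genes did. Here and in the groups below, the order was taken from the mean over these same 41 genes. Their counts in it, and in its highest and lowest libraries, are therefore raised by construction against the shares of all genes. Bst2 shows the size of this spread, at 385 RPKM in library 6 and 212 RPKM in library 8, and so does Oas1a, at 5.13 and 2.13 RPKM. The exceptions to the low values of library 8 were Ifit2, lowest in library 2 at 19.5 RPKM against 21.1 RPKM, and Irf9, lowest in library 4 at 43.9 RPKM against 44.6 RPKM.

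Brown Fgf8b libraries split the same way. All 41 genes were above the group mean in library 10 and 0 in library 16, with mean deviations of 0.26 in library 10, 0.03 in library 14, -0.12 in library 12 and -0.17 in library 16. Library 10 held the highest value of 39 genes and library 16 the lowest of 31, where 25.0% and 26.3% of all genes did. The order 10, 14, 12, 16 was that of 26 genes, where 4.87% of all genes had it. Cxcl10, at 31.1 RPKM in library 10 and 17.6 to 22.5 RPKM in the other 3, and Ifit3, at 92.9 RPKM against 51.3 to 62.7 RPKM, are examples.

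White controls spread less, with mean deviations of 0.11 in library 3, 0.08 in library 1, -0.05 in library 5 and -0.14 in library 7. Library 3 held the highest value of 28 genes and library 7 the lowest of 33, where 23.8% and 23.6% of all genes did, and 19 genes stood in that order, where 3.5% of all genes did. Brown controls showed no such common order: 2 of 41 genes followed it, where 6.33% of all genes did. Library 15 of that group held the lowest value of 23 genes and the highest of 8, where 38.4% of all genes were lowest and 31.5% highest there. The set's mean ranged over 0.50 on the log2 scale in white Fgf8b, 0.42 in brown Fgf8b, 0.25 in white control and 0.10 in brown control libraries.

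**Figure D4:**
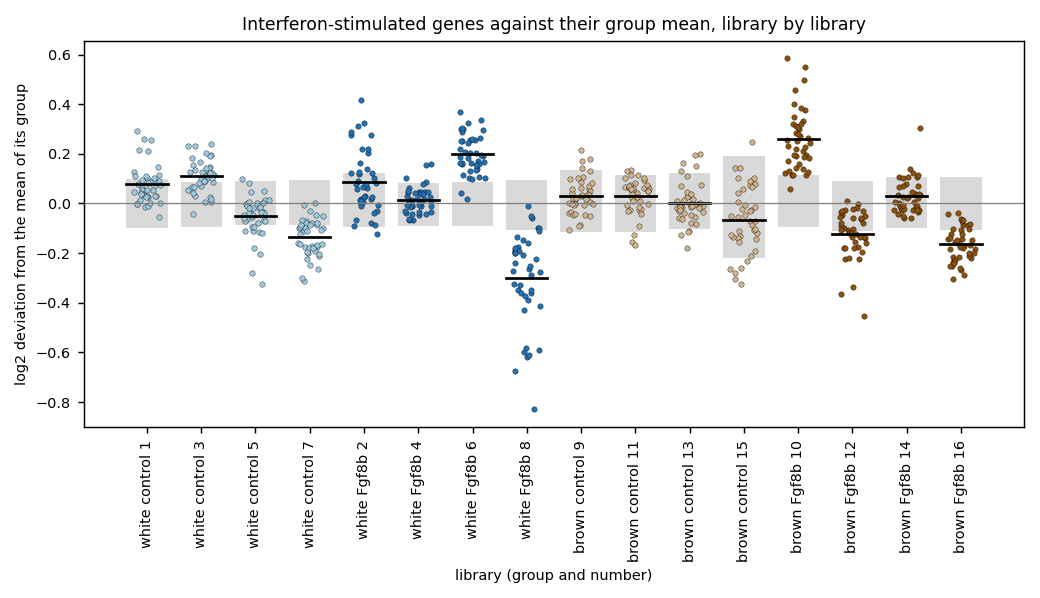
Deviation of each of the 41 genes (points) from its group mean in each of the 16 libraries, on the log2 scale, with the mean over the genes (black lines). Grey boxes give the range that holds the central 80% of the 11790 genes averaging 5 RPKM or more. The points lie above 0 in white Fgf8b library 6 and brown Fgf8b library 10 and below 0 in white Fgf8b library 8 and brown Fgf8b library 16, and the brown controls scatter about 0.

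Measured as the SD over the 4 libraries of a group, the spread of the set had a median of 0.191 in white Fgf8b, 0.195 in brown Fgf8b, 0.119 in white control and 0.098 in brown control libraries. Over the 11790 genes that averaged 5 RPKM or more, the medians were 0.067, 0.071, 0.065 and 0.104. The set was therefore more variable than the general run of genes in 3 groups and not in brown control. This is a description of 4 libraries per group, without a test. The library high in the set was also the deepest of its group in both Fgf8b groups, at 20.1 M reads for library 6 and 16 M for library 10, and in white controls, at 19.8 M for library 3. Library 8, the lowest, was the shallowest white Fgf8b library at 16.2 M reads. The shallowest libraries of the other groups in question, white control 1 at 15.6 M and brown Fgf8b 14 at 14.6 M reads, were second in the order of the set. Brown controls went the other way. Library 9, highest in the set, was the shallowest at 13.7 M reads, and library 15, the lowest, was the deepest at 16.1 M. Summed leukocyte markers were 7.21 RPKM in library 6, 7.73 in library 8, 9.75 in library 10 and 10.4 in library 16. In white controls they were 6.23 RPKM in library 3 and 6.19 in library 7, the libraries highest and lowest in the set. The library with the highest number of its group had the lowest mean of the set in all 4 groups, at -0.14 in library 7, -0.30 in 8, -0.07 in 15 and -0.17 in 16. Libraries 9 and 10, the lowest numbers of the brown groups, were the highest there, and libraries 1 and 2 were second in the white groups. In brown controls, which showed no common order, libraries 9 and 11 both stood at 0.03. The parts of depth, leukocyte RNA and library number in this pattern were not tested.

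Other genes of interferon signalling are counted below, where 36.3% of all genes tested rose and 29.5% fell in white cells and 36.7% rose and 34.7% fell in brown cells. None of 11 interferon genes passed the filter, 7 were at 0 in every library, and Ifnb1, the interferon that fibroblasts make, had 0 to 7 reads per library in white control, 0 to 2 in white Fgf8b, 0 to 3 in brown control and 1 to 3 in brown Fgf8b cells. Of 5 receptor genes tested, 2 rose and 2 fell in white cells and 1 rose and 2 fell in brown cells. Ifngr2, a chain of the interferon gamma receptor, rose in both, at 0.40 and 0.66, and Il10rb, a chain of the interferon lambda and interleukin 10 receptors, fell in both, at -0.34 and -0.66. Ifngr1 rose in white cells, at 0.22 (adjusted p 0.000772), and was at -0.07 in brown cells (adjusted p 0.2).

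Of 13 genes of the JAK-STAT relay and its brakes, 5 rose and 6 fell in white cells and 5 rose and 7 fell in brown cells. The rising share of that list lay near that of all genes in both depots, and its medians were 0.01 and -0.15. The cytokine brakes Socs3 and Sh2b3 rose in both depots, Socs3 by 1.21 in white and 0.86 in brown and Sh2b3 by 1.47 and 1.84. Other brakes did not follow: Cish fell in both, at -0.58 and -0.52, and Socs1 fell in white cells, at -0.33, and rose in brown cells, at 0.42 (adjusted p 0.0123 and 0.00213). Of 17 upstream sensors and adaptors tested, 4 rose and 9 fell in white cells and 6 rose and 6 fell in brown cells. Tlr3, a sensor of double-stranded RNA in endosomes, fell in white cells at -1.19 and was at -0.16 in brown cells (adjusted p 0.188), while Mb21d1, the DNA sensor cGAS, rose in both, at 0.19 and 0.68. Tlr2 and Tlr4 of the same list fell in both depots, Tlr2 at -1.23 and -1.03 and Tlr4 at -0.90 and -0.41.

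A longer list of 53 other interferon-inducible genes tested had 39 called lower and 5 higher in white cells, with a median of -0.83, and 23 lower and 16 higher in brown cells, with a median of -0.21. The difference of the responses was higher for 43 of them and lower for 1, where it was higher for 17.1% and lower for 17.8% of all genes tested. The brown counts lay nearer to the shares of all genes than the white ones. Slfn5, of the Schlafen family, had the largest white change, from 19.9 ± 1.08 to 2.08 ± 0.321 RPKM, and fell in brown cells from 19.6 ± 1.33 to 3.78 ± 0.510 RPKM (SD, n = 4; log2 -3.18 and -2.33). All 13 genes of class I antigen presentation fell in white cells and 10 of them in brown cells, with medians of -0.85 and -0.42. The difference of the responses was higher for 7 of the 13 and lower for 0, with a median of 0.29, which is the direction of the set. H2-K1, a class I heavy chain, fell in both, at -0.90 and -0.96, with a difference of -0.06 (SE 0.12, adjusted p 0.731). Of the 53 other inducible genes, 19 stood in the set's order of white Fgf8b libraries, where 3.86% of all genes did. In the order of brown Fgf8b libraries stood 18, where 4.87% of all genes did, and in that of white controls 12, where 3.5% did. The order of brown controls held 3 of them, where 6.33% of all genes had it. This list includes Oas1g and Ifit3b, which share sequence with Oas1a and Ifit3 of the set. Lyz2, a macrophage gene, fell from 1.22 ± 0.164 to 0.0919 ± 0.0523 RPKM in white and from 2.96 ± 0.819 to 0.171 ± 0.140 RPKM in brown cells, while Cd14 rose in both, at 0.73 and 1.12 on the log2 scale. The part of leukocyte RNA in the changes of the set was not tested.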

How the data were processed

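TRIsure and columns served for RNA extraction and the TruSeq RNA Sample Prep kit v2 for the libraries, per the labels' protocols. CASAVA and bcl2fastq were used, per the submitters' processing notes. Aligner, genome build and strandedness are not stated there, so a gene and its antisense partner could not be separated. The authors deposited RPKM per transcript for 168326 entries. Of values up to 50 reads, 95.6 to 96.0% came within 0.1 of a whole read, from which depth was taken. Read numbers carry counting error only. Transcripts of a gene overlap and share reads, so no count model was used. Entries lacking a symbol and repeated accessions were left out, and 144549 were summed by symbol. The filter was 0.5 RPKM in at least 4 libraries, and limma 3.58.1 (R 4.3.3) was run with trend and robust moderation on all 16 libraries and tested on simulated data.

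The genes, lists and naming rule were chosen with earlier results of these data known. The rule gave values in every library for the 3 largest white and 2 largest brown changes of a role among genes averaging 1 RPKM or more, plus Usp18, Irf7 and Cxcl10. Irf1 and the further genes given by mean or example were added after their values were seen. Shared words come from GENCODE M21 transcripts. The rule names 1 further gene that is not reported here.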

Additional observations from a re-analysis of the deposited data

Results flagged for a closer look

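Single libraries stood far from the other 3 of their group in 6 of 164 sets of 4 values examined, and chance gives about 1 in 20. Irf1 was lowest in white Fgf8b library 8, at 26.8 RPKM, and Trim30a was lowest in white control library 7, at 38.0 RPKM. Irf9 was highest in brown Fgf8b library 10, at 52.5 RPKM. Brown control library 15 held the other 3: Eif2ak2 at 40.6 RPKM and Samd9l at 40.3 RPKM were highest there, and Isg15 at 466 RPKM was lowest.

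The response to Fgf8b differed between the depots, by limma's test of the difference itself, for 40 genes of the set. Given as the log2 change in brown minus that in white cells, the difference among factors and feedback genes was 0.18 for Irf1, 0.75 for Irf7, 0.26 for Irf9, 0.36 for Stat2 and 0.93 for Usp18. Among sensors it was 0.87 for Ifih1, 0.54 for Ddx58, 0.90 for Zbp1, 0.48 for Eif2ak2, 1.21 for Oas1a, 1.63 for Oas2 and 0.81 for Oasl2. Among effectors it was 1.14 for Ifit1, 0.69 for Ifit2, 1.54 for Ifit3, 2.57 for Mx1, 1.14 for Mx2, 1.96 for Rsad2 and 1.75 for Cmpk2. It was also 0.86 for Bst2, 0.34 for Ifitm3, 0.64 for Samd9l, 1.71 for Ifi44, 0.46 for Ifi35, 0.61 for Rtp4 and 0.43 for Xaf1. Among ubiquitin, ISG15 and ADP-ribose genes it was 0.58 for Isg15, 0.49 for Herc6, 0.61 for Trim25, 1.30 for Trim30a, 0.49 for Parp9, 0.52 for Dtx3l and 0.83 for Parp14. Among the GTPases it was 0.49 for Gbp2, 1.0 for Gbp3, 0.71 for Gbp7, 0.96 for Igtp, 0.63 for Irgm1 and 1.25 for Iigp1, and for the chemokine Cxcl10 it was 1.78.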

How the results depend on the processing

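No paired analysis was possible because the labels give no replicate number shared between groups. With single libraries left out, 39 to 40 of the 41 genes were called lower in white cells, 37 to 41 had a higher response in brown, and the white median ran from -0.79 to -0.67. In brown cells 5 to 10 were called higher and 8 to 14 lower, and the median ran from -0.14 to 0.01, with 10 higher and a median of 0.01 without brown Fgf8b library 16. Under the other pseudocounts, filters, scalings, transcripts and models these counts were 40 to 41, 37 to 41, 5 to 7 and 9 to 15. Uncalled brown changes turned sign for Irf7 (-0.04 under upper-quartile scaling, and -0.04 to 0.14 with single libraries left out), Parp14 (-0.01 under upper-quartile scaling, and -0.03 to 0.15) and Ifi44 (-0.17 to 0.01). The cause was not tested. The difference of the responses lost its call for Irf1 in 12 settings, at 0.15 to 0.19, and in 1 or 2 each for Stat2, Gbp2 and Isg15. A fit of only the groups compared was not run for that difference, which needs all 4. Scaling moved the median of all genes by under 0.1. The use of 1 representative transcript for the order of libraries was added after seeing the data and gave 20 genes in the common order of white Fgf8b and 23 in that of brown Fgf8b libraries. Low levels limit Mx1 and Oas2 in white Fgf8b libraries.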
